A study of Mus musculus with 10 samples.

Results

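The genes described here encode the proteasome, its regulators and its assembly chaperones. They were taken by name, as every row of the deposited FPKM table whose symbol begins with Psma, Psmb, Psmc, Psmd, Psme, Psmf or Psmg followed by a digit. FPKM, which corrects read fragments for the length of the gene and the size of the library, allows levels of different genes to be compared. The rule found 50 of 17274 genes. Of these, 48 are proteasome genes and 2 carry a name that only starts alike: Psmc3ip, a meiotic recombination cofactor, and Psme3ip1, which binds the activator encoded by Psme3. The rule itself uses names and no measured value, though the gene family was picked with earlier results of these data known.

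RNA was sequenced in 10 liver samples, called livers here, from wild-type mice in which steatohepatitis, a fatty and inflamed liver, had been induced by the CDAHFD, a diet rich in fat and free of choline whose protein is replaced by L-amino acids. All 10 samples were from mice on this diet that had an adeno-associated virus (AAV) injected into a vein, a control AAV for 5 samples and AAV-miR-181d-5p for the other 5. The sources used here do not give age, sex, vector promoter or dose. They number the samples without tying them to separate animals, so p-values speak only of the variation from sample to sample, which may be technical. The libraries held 18985912 to 20657019 assigned reads, hepatocyte markers summed to 31455 to 38300 FPKM, and a member had a median of 1739 reads per liver. All 50 members passed the filter of a mean of at least 0.5 FPKM, and 35 of them had at least 1000 reads in every liver.

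The proteasome is the barrel-shaped protease that degrades proteins tagged with ubiquitin. Its core particle is a stack of rings of alpha subunits, which form the gate, and beta subunits, among which Psmb5, Psmb6 and Psmb7 carry the chymotrypsin-like, caspase-like and trypsin-like active sites. Interferon gamma and other inflammatory signals induce Psmb8, Psmb9 and Psmb10, which replace those subunits in newly assembled particles (Psmb8 for Psmb5, Psmb9 for Psmb6, Psmb10 for Psmb7) and make the immunoproteasome, which favours peptides that fit MHC class I. The same signals induce Psme1 and Psme2, the subunits of the PA28 cap. The regulatory particle, with a ring of Psmc ATPases and Psmd subunits, binds ubiquitin and unfolds the substrate. Standard subunit genes are known to be raised together by the transcription factor Nfe2l1 when the proteasome is impaired.

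The miRNA that the vector encodes and the few matches to it among these genes are shown first, since a miRNA acts through its seed, bases 2 to 8, here in capitals. The mature sequence is from RefSeq (GRCm38.p6, the build also called mm10, chromosome 8, 84178759 to 84178781, reverse strand).
mmu-miR-181d-5p: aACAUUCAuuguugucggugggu
A full match to the seed in a 3' UTR reads TGAATGT, with an A after it TGAATGTA (8mer), and GAATGTA is the shorter match that ends in that A. Of 49 members with an annotated 3' UTR, 5 held such a match (10.2%), against 2702 of 11770 tested genes (23.0%). Their 3' UTRs are short, with a median of 294 nt against 1114 nt over all tested genes. The 5 genes were Psma2, Psma3, Psmb1, Psmb4 and Psmf1, and the matches are in capitals in the sites below, one each for the gene with an 8mer (Psmf1, which encodes the inhibitor PI31, at chr2:151716279-151716286, reverse strand) and the gene whose match lies closest to its stop codon among the other 4 (Psmb4, a beta subunit that does not cut, at chr3:94884413-94884419, reverse strand).
Psmf1 site: ttttaagtcatTGAATGTAtctggaatgga
Psmb4 site: tgaaatccagtTGAATGTccagagtgttga
None of the 5 was past a p of 0.05, and their log2 changes ran from -0.00 (Psma3, 47.9 ± 4.90 FPKM in control and 47.7 ± 2.12 FPKM in miR-181d-5p livers) to 0.10 (Psmf1, 11.4 ± 0.387 and 12.3 ± 1.07 FPKM; SD, n = 5 each). The interferon-inducible members Psmb8, Psmb9, Psmb10, Psme1 and Psme2 held no match. Nor did Psme2b, which as a copy of Psme2 is grouped with them further on as 1 of 6 inducible genes. Its own induction was not checked.

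The promoters of 4 members are shown. These are the catalytic and PA28 genes whose listed promoter holds a match to a sequence named below, so they are not typical of the members. The windows are RefSeq's 250 bases before and 50 after its start of transcription, on the gene's strand, GRCm38.p6. That start can differ from the GENCODE gene ends used for positions and start site distances further on. The RefSeq windows of Psmb8, Psme1 and Psmb9 (34187281 to 34187580) lie wholly inside the GENCODE genes. For these 3, bases before GENCODE's start were not searched. Capitals mark matches, on either strand, to the core of the antioxidant response element that Nfe2l1 binds (TGACNNNGC), the gamma-activated site of interferon gamma targets (TTCNNNGAA) or the interferon-stimulated response element bound by IRF factors (GAAANNGAA).
Psmb5, chr14:54617946-54618245, reverse strand: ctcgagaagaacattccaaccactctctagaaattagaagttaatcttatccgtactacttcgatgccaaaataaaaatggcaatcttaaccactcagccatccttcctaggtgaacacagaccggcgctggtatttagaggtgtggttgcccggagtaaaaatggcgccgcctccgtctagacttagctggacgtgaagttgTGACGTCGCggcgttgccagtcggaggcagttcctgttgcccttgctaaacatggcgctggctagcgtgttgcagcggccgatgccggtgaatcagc
Psmb6, chr11:70525107-70525406, forward strand: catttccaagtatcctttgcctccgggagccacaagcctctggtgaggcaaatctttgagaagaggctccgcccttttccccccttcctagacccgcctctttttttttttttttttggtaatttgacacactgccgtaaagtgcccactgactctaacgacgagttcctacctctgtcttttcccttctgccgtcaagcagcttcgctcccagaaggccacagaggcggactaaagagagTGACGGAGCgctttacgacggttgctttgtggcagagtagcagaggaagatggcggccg
Psmb8, chr17:34197945-34198244, forward strand: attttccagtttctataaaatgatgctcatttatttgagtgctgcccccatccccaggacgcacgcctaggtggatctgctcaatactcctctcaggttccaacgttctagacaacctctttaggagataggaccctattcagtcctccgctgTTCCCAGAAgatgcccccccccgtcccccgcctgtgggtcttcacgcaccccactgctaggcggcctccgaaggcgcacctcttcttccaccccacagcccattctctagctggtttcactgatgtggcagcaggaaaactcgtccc
Psme1, chr14:55578244-55578543, forward strand: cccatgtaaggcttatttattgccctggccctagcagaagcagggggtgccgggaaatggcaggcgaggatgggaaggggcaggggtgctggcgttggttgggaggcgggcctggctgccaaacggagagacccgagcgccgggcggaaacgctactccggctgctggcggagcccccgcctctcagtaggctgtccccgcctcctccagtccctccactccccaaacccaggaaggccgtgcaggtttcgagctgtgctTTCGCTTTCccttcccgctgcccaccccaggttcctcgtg
Psmb5 and Psmb6 each hold a match to the antioxidant core, 47 and 9 bases before the start, Psmb8 one to the gamma-activated site 97 bases before it, and Psme1 one to the interferon-stimulated element, on the opposite strand, 10 bases after it. The promoters of Psmb9, Psmb10 and Psme2 hold none of these letters in this window, and Psmb7 had no listed promoter. The antioxidant core was present in 6 of 42 members with a listed promoter (14.3%) and 16.9% of tested genes. The interferon-stimulated element was present in 7 of 42 (16.7%) against 8.87%, and the gamma-activated site in 3 of 42 (7.14%) against 8.44%. Of the 7 members with the interferon-stimulated element 1 was among 5 inducible genes (Psmb8, Psmb9, Psmb10, Psme1 and Psme2), and 6 were among 34 other proteasome genes (17.6%). Psme2b, whose listed promoter holds no match, was counted in neither group. The gamma-activated site was in 1 of those 5 and 2 of those 34, and the antioxidant core in 0 and 6. A match is a description of the letters and not a measured binding site.

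The question put to the data was how the constitutive and the immunoproteasome catalytic subunits compare between livers given the control vector and livers given the miR-181d-5p vector. Levels of the constitutive subunits were close in the groups and slightly above control in miR-181d-5p livers. The 3 immunoproteasome subunits stood at 70.5% to 76.5% of their control means. No member passed the adjusted test, and in no member were the groups apart. The control livers differed widely among themselves in the inducible subunits, while the miR-181d-5p livers lay close together near the lower end of the control range.

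**Figure D1:**
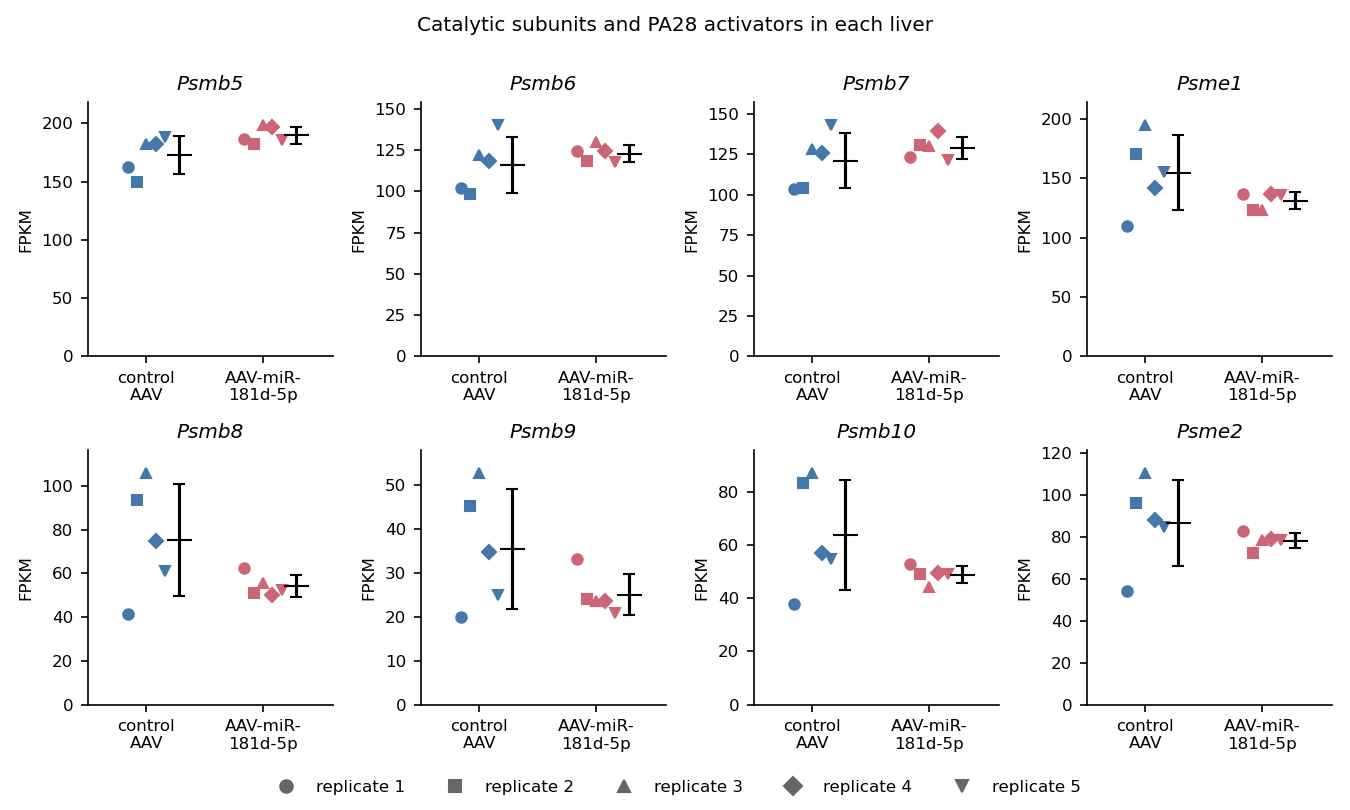
FPKM of the catalytic subunits and of Psme1 and Psme2 in each of 10 livers (symbols give the replicate number, bars the mean ± SD of 5 livers). In Psmb8, Psmb9, Psmb10, Psme1 and Psme2 control liver 3 was the highest and control liver 1 the lowest of all 10, with the miR-181d-5p livers between them.

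Psmb5, the chymotrypsin-like subunit (chromosome 14, 54614119 to 54618022), stood in control livers 1 to 5 at 163, 149, 182, 182 and 188 FPKM, and in miR-181d-5p livers 1 to 5 at 186, 182, 198, 197 and 186 FPKM. Control livers 1 and 2 were low and the other 8 overlapped. The means were 173 ± 16.3 and 190 ± 7.20 FPKM (SD, n = 5 each), with a log2 change of 0.14 (SE 0.07) on the log2(FPKM + 1) scale, on which all changes are given, and an adjusted p of 0.394 by limma.

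Psmb6, the caspase-like subunit (chromosome 11, 70525367 to 70527858), stood at 102, 98.2, 122, 118 and 140 FPKM in control livers and at 124, 118, 130, 124 and 117 FPKM in miR-181d-5p livers. Psmb7, the trypsin-like subunit (chromosome 2, 38588036 to 38644087), stood at 103, 104, 129, 126 and 143 FPKM and at 123, 131, 130, 139 and 122 FPKM. In both, control livers 1 and 2 were again the lowest and control liver 5 the highest of all 10. The log2 changes were 0.09 (SE 0.09) and 0.10 (SE 0.09), with adjusted p of 0.641 and 0.613 by limma.

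Psmb8, the inducible counterpart of Psmb5 (chromosome 17, 34197721 to 34201454), stood at 41.4, 93.6, 106, 74.7 and 61.02 FPKM in control livers and at 62.3, 50.8, 55.6, 50.3 and 52.3 FPKM in miR-181d-5p livers. Control livers 2 to 4 lay above all miR-181d-5p livers, control liver 5 lay among them and control liver 1 lay below them. The means were 75.3 ± 25.5 and 54.2 ± 4.96 FPKM, with a log2 change of -0.40 (SE 0.20) and an adjusted p of 0.368 by limma.

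Psmb9, the counterpart of Psmb6, lies in the MHC class II region of chromosome 17 (34181987 to 34187764), 9957 bp from Psmb8 between start sites. It stood at 19.8, 45.2, 52.6, 34.6 and 24.9 FPKM in control livers and at 33.1, 24.0, 23.5, 23.6 and 20.7 FPKM in miR-181d-5p livers. The order of the control livers was that of Psmb8, and miR-181d-5p liver 1 stood above its group. The log2 change was -0.42 (SE 0.22), the most negative of the 50 members, with an adjusted p of 0.399 by limma.

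Psmb10, the counterpart of Psmb7, lies elsewhere, on chromosome 8 (105935735 to 105938444). It stood at 37.9, 83.3, 87.0, 56.9 and 54.9 FPKM in control livers and at 52.8, 49.3, 44.2, 49.4 and 49.0 FPKM in miR-181d-5p livers. Control liver 1 was below all miR-181d-5p livers and the other 4 control livers were above them. The log2 change was -0.32 (SE 0.18), with an adjusted p of 0.423 by limma.

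The inducible share of each catalytic pair followed from these values. Psmb8 made up 20.3%, 38.5%, 36.7%, 29.0% and 24.5% of the FPKM of Psmb8 and Psmb5 together in control livers 1 to 5, and 25.0%, 21.8%, 21.9%, 20.3% and 21.9% in miR-181d-5p livers. Psmb9 made up 15.1% to 31.5% of its pair with Psmb6 in controls and 15.0% to 21.0% in miR-181d-5p livers. Psmb10 made up 26.8% to 44.4% of its pair with Psmb7 in controls and 25.3% to 29.96% in miR-181d-5p livers. So the constitutive member of each pair had the higher mRNA level in all 10 livers, and the shares overlapped between groups in all 3 pairs.

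The mean log2 level of Psmb8, Psmb9 and Psmb10 minus that of Psmb5, Psmb6 and Psmb7 was -1.89, -0.70, -0.85, -1.38 and -1.81 in control livers 1 to 5. In miR-181d-5p livers 1 to 5 it was -1.55, -1.82, -1.92, -1.93 and -1.85. Control livers 2, 3 and 4 were above all miR-181d-5p livers, while control livers 1 and 5 lay within their range. The group means were -1.33 ± 0.54 and -1.81 ± 0.15, a difference of -0.49 that is smaller than the SD of the control livers. No test was made of this score. The difference was -0.63 without control liver 1, -0.33 without control liver 2 and -0.37 without control liver 3, and it kept its direction in all 21 alternatives.

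**Figure D2:**
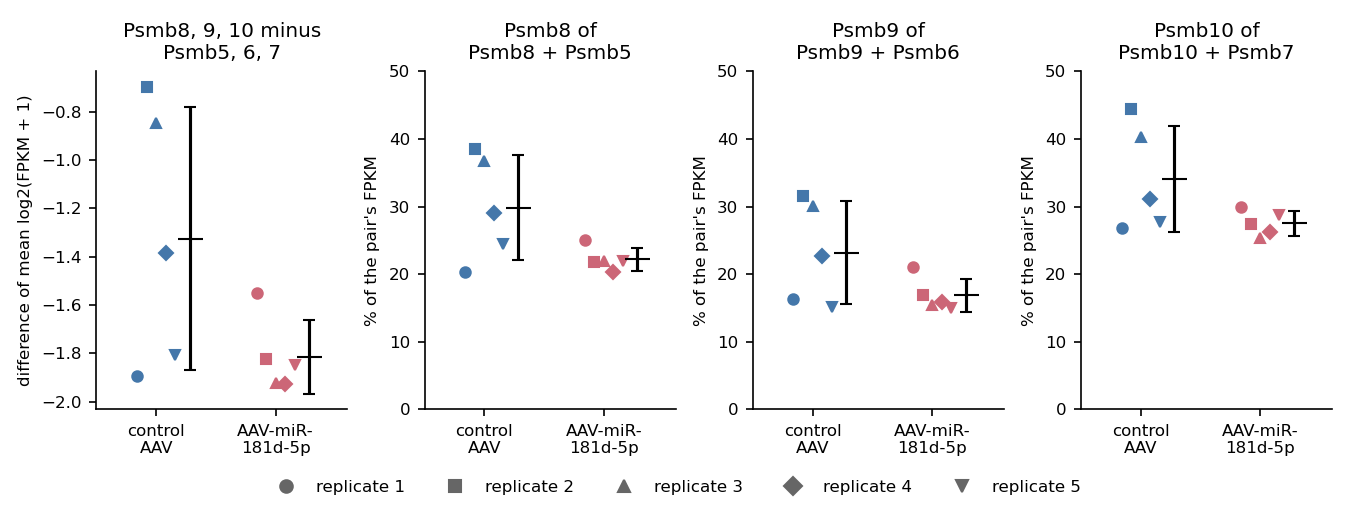
First panel, mean log2(FPKM + 1) of Psmb8, Psmb9 and Psmb10 minus that of Psmb5, Psmb6 and Psmb7 in each liver; other panels, the inducible share of each pair's FPKM (symbols give the replicate number, bars the mean ± SD of 5 livers). Control livers 2 and 3 were the highest in all 4 panels, and control livers 1 and 5 lay among or close to the miR-181d-5p livers.

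Psme1 and Psme2, the alpha and beta subunits of PA28 (chromosome 14, 55578123 to 55581529 and 55587441 to 55591113), likewise had control livers 3 and 2 at the top and control liver 1 at the bottom. Psme1 stood at 110, 170, 195, 142 and 156 FPKM in control livers and at 137, 123, 124, 136 and 136 FPKM in miR-181d-5p livers. Its log2 change was -0.21 (SE 0.12; limma adjusted p = 0.434), and all but control liver 1 were above the miR-181d-5p livers. Psme2 stood at 54.3, 96.2, 110, 88.1 and 84.4 FPKM and at 82.7, 72.2, 78.2, 79.0 and 78.6 FPKM. Its log2 change was -0.11 (SE 0.15; limma adjusted p = 0.738), and again control liver 1 alone was below the miR-181d-5p livers. Psme2b, a copy of Psme2 on chromosome 11, had a log2 change of -0.22 (SE 0.14). Its transcript is 99.4% identical to that of Psme2 over 794 nt, so reads may have been split between them and both values are uncertain.

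Thus Psmb8, Psmb9, Psmb10, Psme1, Psme2 and Psme2b all had control liver 3 as the highest and control liver 1 as the lowest of the 10 livers. The same held for 6 of the other members (Psma1, Psma5, Psma6, Psmb4, Psmd9 and Psmg4), where the differences between those livers were smaller, at most 1.48-fold. Over all 12053 tested genes control liver 3 was highest in 5.44% and control liver 1 lowest in 10.8%. Over the 41 standard proteasome genes (the 50 without these 6, the 2 non-members of the complex and the germ-line subunit Psma8), control liver 3 was highest in 7 and control liver 1 lowest in 18. Without control liver 1, all 6 inducible genes were lower in miR-181d-5p livers at an unadjusted p under 0.05. In that fit 10.5% of all tested genes were lower at that p. The lowest adjusted p of a member there, that of Psmb8, was 0.111 by limma. Without control liver 2 or control liver 3 none of the 6 was past an unadjusted 0.05. In those fits 7.08% and 10.6% of all tested genes were lower at that p. The log2 change of Psmb8 was -0.59 without control liver 1, -0.30 without control liver 2 and -0.26 without control liver 3. In the same order it was -0.60, -0.31 and -0.26 for Psmb9 and -0.49, -0.21 and -0.19 for Psmb10. It was -0.33, -0.17 and -0.12 for Psme1 and -0.27, -0.06 and -0.02 for Psme2. Size thus depended on which control liver was left out, while the direction stayed. In the fit of all 10 livers none of the 6 was past an unadjusted 0.05.

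Spread within the groups differed in these genes. The highest control liver stood 2.55-fold, 2.65-fold and 2.30-fold above the lowest for Psmb8, Psmb9 and Psmb10, and 1.77-fold and 2.03-fold for Psme1 and Psme2. Within the miR-181d-5p group these ratios were 1.24, 1.599, 1.19, 1.11 and 1.15. The SD of log2 levels was larger in controls in 45 of 50 members, where 76.1% of all tested genes had the larger SD in controls. The ratio of the control SD to the miR-181d-5p SD was 4.21 for Psmb8, 5.37 for Psmb10 and 5.44 for Psme2, and 6.09%, 2.73% and 2.62% of tested genes had a ratio at least as large. For Psmb9, where miR-181d-5p liver 1 stood apart, it was 2.33 and 25.7% of genes had as much. For Psme1 and Psme2b it was 3.87 and 3.32. Larger ratios than in any of the 6 inducible genes were found in Psmb3, a beta subunit, Psma7, an alpha subunit, and Psmd7, of the regulatory particle lid. They were 5.91, 6.47 and 8.75. The control SDs of these genes were 0.18, 0.20 and 0.08, below those of the 6 inducible genes, where the median over all tested genes was 0.17. Their miR-181d-5p SDs were 0.03, 0.03 and 0.01.

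**Figure D3:**
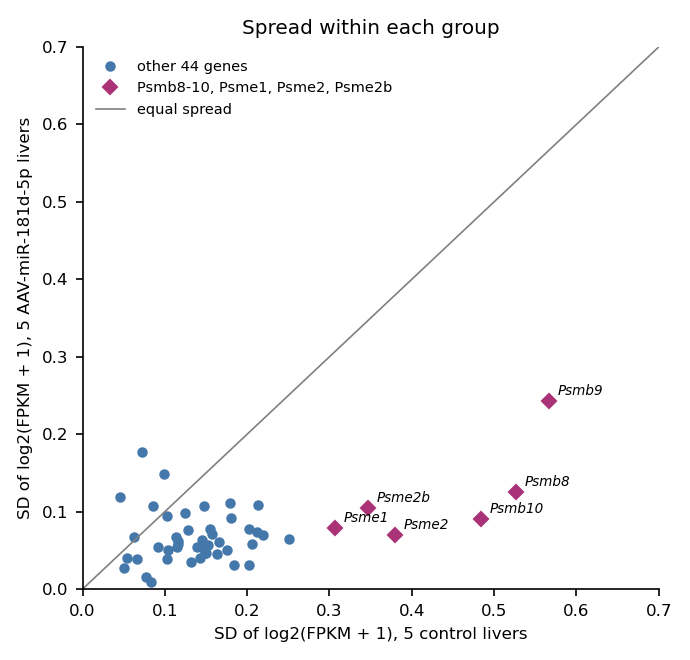
SD of log2(FPKM + 1) among 5 miR-181d-5p livers against that among 5 control livers for the 50 genes, with the line of equal spread. The 6 inducible genes reach control SDs of 0.31 to 0.57, to the right of all the others, and 45 of 50 points lie below the line.

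The standard subunits hardly differed between the groups. Of the 41 standard genes, 35 had a log2 change above 0 and 6 below, from -0.06 to 0.18 with a median of 0.07, and over all tested genes 45.5% were above 0 with a median of -0.02. Of all 50 members, 38 were above 0. That split depended on scaling, at 33 when each liver was scaled to 1 common FPKM sum and 30 when each liver was freed of its trend with gene length. The members are short genes (median recovered length 1406 nt against 3326 nt). No member passed at an adjusted p under 0.05, as was true of all 12053 genes (0% called). At an unadjusted p under 0.05, 1 member was higher and 0 were lower, where 5.04% of all genes were higher and 9.63% lower. In 0 of 50 members were the groups apart, against 1.02% of all genes with the miR-181d-5p livers higher and 1.45% with them lower.

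**Figure D4:**
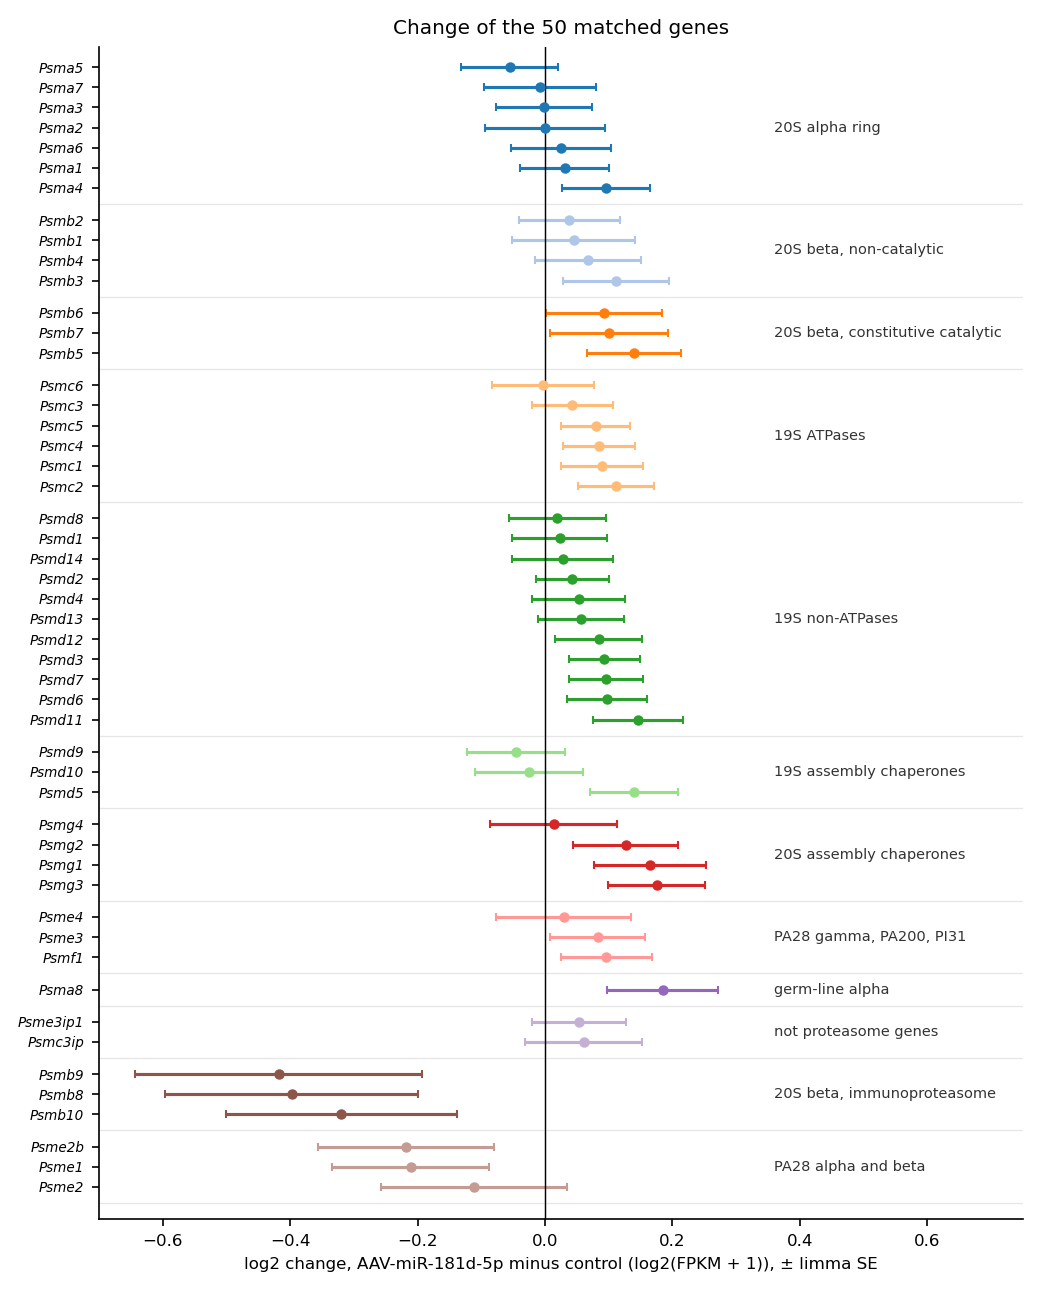
Log2 change (AAV-miR-181d-5p minus control, log2(FPKM + 1), n = 5 each) of each of the 50 genes with the limma standard error, by role. The standard classes lie between -0.06 and 0.18 and the 6 inducible genes between -0.42 and -0.11.

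The 7 alpha subunits, the gate of the core particle, lay around 0, with a median log2 change of 0.00 whose sign turned with scaling and changes from -0.06 (Psma5) to 0.10 (Psma4). Their mean levels ran from 47.8 FPKM (Psma3) to 117 FPKM (Psma6) per gene length, although the subunits are built into the particle in equal numbers. Their mean over the 7 was lowest in control livers 1 and 2 (73.4 and 79.6 FPKM), highest in control livers 3 and 5 (95.2 and 93.7 FPKM), and 84.0 to 87.6 FPKM in all 5 miR-181d-5p livers. The FPKM sum over all genes was likewise lowest in control livers 1 and 2 (440782 and 444090). It was highest in control livers 5 and 3 (502752 and 482553), and 471179 to 479869 in miR-181d-5p livers. In 6 of the 41 standard genes (Psmd1, Psmd2, Psmd5, Psmd7, Psme3 and Psme4) control liver 5 was instead the lowest of the 10. The part of this library-wide order in the subunit levels was not tested. The 4 beta subunits without an active site, Psmb1 to Psmb4, had changes of 0.04 to 0.11 and mean levels of 85.5 to 193 FPKM.

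Psma8, the alpha subunit of the germ-line proteasome, was near the filter. It stood at 0.943, 0.795, 0.906, 0.871 and 0.713 FPKM in control livers and at 1.53, 1.08, 0.800, 1.01 and 1.12 FPKM in miR-181d-5p livers. It rested on 164 reads over the 5 control livers and 215 over the 5 miR-181d-5p livers. The log2 change was 0.18 (SE 0.09; limma adjusted p = 0.350), and 0.33 with a pseudocount of 0.1. The thymic subunit gene Psmb11 was not analysed here.

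In the regulatory particle the 6 ATPases had changes of -0.00 to 0.11 and the 11 other subunits of 0.02 to 0.15. Psmc2, an ATPase, stood at 53.9, 52.7, 56.9, 58.2 and 57.8 FPKM in control livers and at 58.9, 60.3, 63.9, 62.6 and 56.7 FPKM in miR-181d-5p livers (log2 change 0.11, SE 0.06; limma adjusted p = 0.396). Psmd11, a lid subunit, stood at 31.1, 28.0, 28.4, 32.4 and 29.9 FPKM and at 35.4, 29.5, 34.7, 34.7 and 32.1 FPKM (log2 change 0.15, SE 0.07; limma adjusted p = 0.357). For Psmc2 the highest 4 livers were miR-181d-5p livers and miR-181d-5p liver 5 lay among the controls, and for Psmd11 the highest 3 were miR-181d-5p livers and the rest overlapped. Psmd8, the most abundant of the 50 at 214 ± 22.3 and 216 ± 6.87 FPKM, and Psmd4, the ubiquitin receptor, at 74.1 ± 7.49 and 76.7 ± 2.15 FPKM, had changes of 0.02 and 0.05. Psmd14, the deubiquitinase of the lid, had a change of 0.03.

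Assembly chaperones escort subunits and leave the finished particle. Psmg3, which with Psmg4 helps form the alpha ring, was the 1 member past an unadjusted 0.05 by limma, with an adjusted p of 0.325. It stood at 13.4, 13.1, 17.1, 15.1 and 13.8 FPKM in control livers and at 16.3, 16.1, 17.2, 15.7 and 16.8 FPKM in miR-181d-5p livers. Control liver 3 lay among the miR-181d-5p livers and the other 4 below them, with a log2 change of 0.18 (SE 0.08).

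Psmg1, which pairs with Psmg2, stood at 21.2, 18.2, 22.8, 22.0 and 26.1 FPKM and at 24.7, 24.2, 25.4, 26.9 and 22.5 FPKM (log2 change 0.17, SE 0.09; limma adjusted p = 0.398). Psmd5, a chaperone of the ATPase ring, stood at 21.7, 21.6, 20.5, 24.6 and 19.7 FPKM and at 24.5, 24.0, 24.0, 24.8 and 22.2 FPKM (log2 change 0.14, SE 0.07; limma adjusted p = 0.365). For Psmg1 control livers 3 and 5 lay within the miR-181d-5p range and the other 3 below it, and for Psmd5 control liver 4 alone lay within it. The chaperones Psmg2, Psmg4, Psmd9 and Psmd10 had changes of 0.13, 0.01, -0.05 and -0.02. Among other caps, Psme3 (PA28 gamma, nuclear), Psme4 (PA200) and the inhibitor Psmf1 had changes of 0.08, 0.03 and 0.10.

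Genes outside the name pattern that work with the proteasome were read from fixed lists, and none passed the adjusted test. Of 16 partners, such as the receptor Adrm1 and the maturation factor Pomp, 10 were above 0 and 6 below (median log2 change 0.05), and 0 were past an unadjusted 0.05. Of 12 genes around Nfe2l1, which include the proteases and partners that activate it, 7 were above 0 and 5 below. The small Maf protein Mafk, a DNA-binding partner of Nfe2l1, was past an unadjusted 0.05 at 5.66 ± 0.833 FPKM in control and 4.66 ± 0.326 FPKM in miR-181d-5p livers (limma adjusted p = 0.311). Nfe2l1 itself, named after its values were seen, had a log2 change of 0.00. Of 6 ubiquitin and ubiquitin activation genes 2 were above 0 and 4 below, and 0 were past an unadjusted 0.05.

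Genes that induce the immunoproteasome and genes that load its peptides mostly had lower means in miR-181d-5p livers. All 9 tested genes of the interferon gamma route were below 0, with a median log2 change of -0.19, and 1, the transcription factor Irf8, was past an unadjusted 0.05 (17.6 ± 2.07 FPKM in control and 14.5 ± 1.73 FPKM in miR-181d-5p livers; limma adjusted p = 0.281). Irf1, a direct activator of Psmb9, stood at 17.9 ± 3.67 FPKM in control and 14.4 ± 1.5 FPKM in miR-181d-5p livers (limma adjusted p = 0.340). Of 10 peptide loading genes 7 were below 0 (median -0.16) and 0 were past an unadjusted 0.05. Over all tested genes 45.5% were above 0 and 9.63% were lower at an unadjusted p under 0.05. The 1 of 9 past that p was close to this share and the 0 of 10 below it. Ifng itself was at most 0.284 FPKM and at 0 in 3 livers, and was not tested.

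Tap1, the peptide transporter gene whose start lies 211 bp from that of Psmb9 on the opposite strand, was named after its values were seen. It stood at 15.1, 33.5, 28.4, 23.2 and 16.0 FPKM in control livers and at 21.9, 15.8, 16.9, 16.4 and 16.9 FPKM in miR-181d-5p livers. Control livers 2 to 4 were above all miR-181d-5p livers and miR-181d-5p liver 1 was the highest of its group, as in Psmb8 and Psmb9. The log2 change was -0.33, with an adjusted p of 0.430 by limma.

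**Figure D5:**
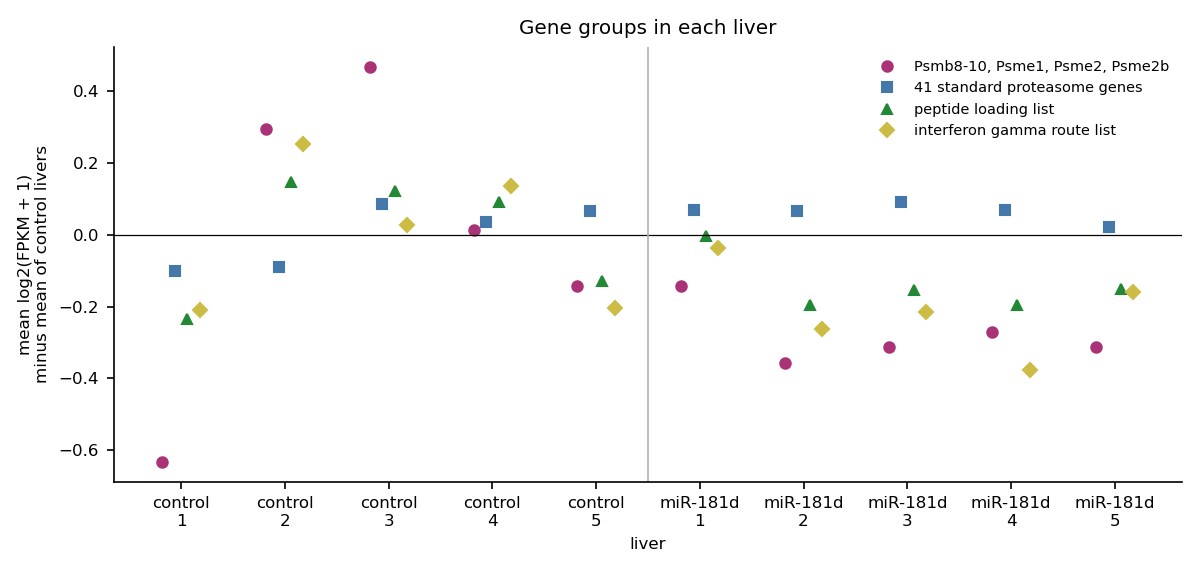
Mean log2(FPKM + 1) of 4 gene groups in each liver, relative to the mean of the 5 control livers. The 6 inducible genes run from -0.63 (control liver 1) to 0.47 (control liver 3) in controls and from -0.36 to -0.14 in miR-181d-5p livers, while the 41 standard genes stay between -0.10 and 0.09.

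Immunoproteasome subunits are constitutive in leukocytes, so leukocyte markers are given beside them. In bulk tissue fewer cells of a type and less RNA per cell cannot be told apart. All 5 pan-leukocyte markers were below 0, 2 at an unadjusted p under 0.05 (9.63% of all tested genes were lower at that p), with summed levels of 177 to 229 FPKM in control and 137 to 191 FPKM in miR-181d-5p livers. Control liver 5 had the highest such sum and control liver 3, the highest in the inducible subunits, had 185 FPKM. Laptm5 made up 50.2% of the sum and was the lowest of the controls in control liver 3 (85.3 FPKM). The other markers of this list were lowest of the controls in control liver 1. Of 9 tested lymphocyte markers 6 were below 0, 2 at an unadjusted p under 0.05, with sums of 14.4 to 28.1 and 15.5 to 24.7 FPKM. Of 9 macrophage markers 7 were below 0, 3 at an unadjusted p under 0.05. Their sums, 59.4% from 1 gene, were 2056 to 2862 and 1529 to 2617 FPKM. For the macrophage markers Adgre1 and Mpeg1, named after their values were seen, every miR-181d-5p liver was below every control liver (log2 changes -0.36 and -0.43; limma adjusted p = 0.221 for both). Of all tested genes 1.45% had the groups apart in this way. The Kupffer cell markers Clec4f and Timd4 of the same list were above 0 (log2 changes 0.12 and 0.21), with overlapping groups. Of 5 tested dendritic cell markers 4 were below 0, 2 at an unadjusted p under 0.05. Their sum, 93.4% of it the MHC class II gene H2-Ab1, ran from 184 (control liver 1) to 493 FPKM (control liver 2) in controls and from 202 to 271 FPKM in miR-181d-5p livers. H2-Ab1 stood at 162, 471, 426, 343 and 245 FPKM in control livers, an order that differs from that of Psmb8 only between livers 2 and 3. Xcr1, below the filter and not tested, had the order of H2-Ab1. The other markers of this list did not. Flt3, Itgax and Zbtb46 were lowest of the controls in control liver 3 (0.423, 13.1 and 0.769 FPKM), and Cd209a in control liver 2 (0.846 FPKM). No marker of these 4 lists was at 0 in any liver. Lower levels were not particular to the leukocyte lists. Of stellate cell and fibroblast markers 6 of 6 were below 0, 5 at an unadjusted p under 0.05. Their sums were 292 to 435 FPKM in control and 242 to 293 FPKM in miR-181d-5p livers. All 5 cholangiocyte markers were below 0, 4 at an unadjusted p under 0.05. The median log2 changes of these 2 lists were -0.34 and -0.59, where that of the pan-leukocyte list was -0.24. Of 6 endothelial markers 4 were below 0, 2 at an unadjusted p under 0.05, and 2 were above 0, with sums of 112 to 129 and 112 to 119 FPKM. Of 7 hepatocyte markers 5 were above 0, 1 at an unadjusted p under 0.05. The part of these cells in the levels of the inducible subunits was not tested.

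Reads shared with neighbouring genes limit some values. Exons of 12 of the 49 members found in the annotation overlap those of a gene on the opposite strand, among them Psmb9 with Tap1, Psmb8 with Gm20496, Psmb7 with Nek6 and Psme1 with Emc9. The sources used here do not state whether strand was used in counting, so reads of such pairs may not have been told apart. On the same strand, exons overlap for Psmb5 with Mir686, Psmd1 with Gm21972, Psme2b with 9930111J21Rik1 and Psmg3 with Gm26938. Strand cannot separate the reads of these pairs.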

How the data were processed

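RNA-seq of 10 liver samples, 5 per vector, was analysed from the gene table of FPKM values that the authors deposited, a unit scaled by gene length and assigned reads. The submitters' processing notes name, without roles, DESeq2 1.18.1, R 3.4.1, HTSeq 0.13.5, HISAT2 2.2.1, Trimmomatic 0.38 and FastQC 0.11.9, and the mm10 build. The annotation and strand setting were not given in the sources used here.

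Whole reads were recovered from the FPKM steps for 17273 of 17274 genes (99.99%; tolerance 0.02 read). They gave library totals of 18985912 to 20657019 reads. Replicates differed by more than sampling noise (chi-square per degree of freedom of at least 9.51 for any pair of a group, Spearman 0.971 to 0.994), so each counted once. The test covered 12053 genes, those averaging 0.5 FPKM or more, in 1 fit of all 10 livers on log2(FPKM + 1) with limma 3.58.1 (empirical Bayes with trend) in R 4.3.3, with Benjamini-Hochberg adjustment over all of them. Fold changes on this scale understate those of low genes.

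The members and gene lists were chosen with earlier results of these data known. Values in every liver are given for Psmb5 to Psmb10, Psme1, Psme2 and the 6 other members with the smallest p. From each list of other genes up to 3 with the smallest p could be named. Gene positions and 3' UTRs are from GENCODE vM21 (mm10, 1-based), and miRNA and promoter sequences from RefSeq (GRCm38.p6). Promoter entries were found for 42 of 50 members. Results were recomputed with other scalings, filters and pseudocounts, with robust and weighted fits, with a replicate block, with limma voom on the recovered reads, and without each liver. 0 columns of other samples were in the table. Some genes of these lists are not reported here by name.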

Additional observations from a re-analysis of the deposited data

Results flagged for a closer look

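Of 102 groups of 5 livers examined, over the 50 genes and the catalytic score, 5 held a liver far from the other 4 relative to the range of its group, where chance gives about 1 in 20. In miR-181d-5p liver 1 Psmb9 stood at 33.1 FPKM, the next liver of that group being at 24.0 FPKM. The same liver had the highest immunoproteasome minus constitutive level of its group, -1.55 against -1.82 in the next. In miR-181d-5p liver 5 Psmd14 was the lowest, at 39.6 FPKM against 43.7 FPKM in the next. In miR-181d-5p liver 3 Psmd6 was the highest, at 66.7 FPKM against 62.0 FPKM. In control liver 4 Psme3ip1, which is not a proteasome subunit, was the highest, at 12.3 FPKM against 10.5 FPKM.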

How the results depend on the processing

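In 21 alternatives no member passed the adjusted threshold, and the named members kept their direction without a call in 293 of 293 combinations. The count of all genes past it, 0 in the fit reported, ran from 0 to 3 when 1 liver was left out. Members higher at an unadjusted p under 0.05, 1 in the fit reported, numbered 6 without a filter, 3 with quantile normalization, 0 with FPKM rescaled to a common sum, 0 with voom on recovered reads, and 0 to 3 with 1 liver left out. Members lower, 0 in the fit reported (9.63%), numbered 1 with rescaled FPKM (10.5%), 2 with the length trend removed (10.1%) and 4 with array weights (10.8%). With 1 liver left out they numbered 0 to 6 (5.59% to 14.9%), 6 of them without control liver 1 (10.5%). The causes were not tested. The catalytic score differed by -0.63 to -0.33 with 1 liver left out. Over all genes the unadjusted calls, 607 higher and 1161 lower, were 347 and 1266 with rescaled FPKM and 997 and 942 with quantile normalization. Same-numbered livers did not deviate together (correlations -0.283 to 0.015), so the numbers give no pairing. A replicate block gave 1 gene past the adjusted threshold and a score difference of -0.49. At an unadjusted p under 0.05 it gave 0 members higher (3.19% of all tested genes) and 0 lower (6.94%). Depth limits Psma8 and Psmc3ip most, with 24 reads in the poorest liver of a member.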
